A study of Mus musculus with 13 samples.

Results

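Synaptic vesicles store neurotransmitter in the nerve terminal and release it at the active zone, the patch of presynaptic membrane that faces the synapse. The 31 genes described here encode the fusion machinery, its regulators, the scaffold of the active zone, proteins of the vesicle itself, glutamate transporters that fill it, and the endocytic proteins that recover it. They were chosen by name and function, through probe sets annotated with that gene symbol alone, and all 31 were measured, as 31 of the 18193 genes named on the array, with 78 probe sets between them. Each gene is represented by its brightest probe set, the one with the highest mean log2 intensity over the 13 arrays, and its other probe sets stand beside it.

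The mice were males of the inbred strain C3HeB/FeJ, with no transgene named in the labels. The 6 mice of the creatine group ate pellets containing 1% creatine for 6 months, and the 7 mice of the untreated group ate pellets of the same calorie content without it. All were 10 to 12 weeks old when the feeding began, and total RNA of 1 brain hemisphere per sample was hybridised to an Affymetrix mouse expression array. Creatine is the substrate of creatine kinase, which keeps a reserve of high-energy phosphate for the regeneration of ATP. The series is titled as a study of health and life span under creatine, and the comparison here asks whether transcripts of the presynaptic machinery differed in brain after the diet. The labels call the arrays biological replicates and say nothing further of the animals, so p-values measure the spread between these samples.

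In release, syntaxin and SNAP-25 on the plasma membrane and a synaptobrevin on the vesicle zip into one SNARE complex that pulls the membranes together. Complexin clamps the complex until synaptotagmin binds calcium, and NSF with its SNAP adaptors takes the spent complex apart. Bassoon, piccolo, RIM, ELKS and Munc13 organise the active zone and prepare vesicles for fusion, and dynamin, amphiphysin, endophilin and synaptojanin retrieve the membrane afterwards.

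No member passed the test between diets. Of the 31 genes, 0 had an adjusted p under 0.05 at the brightest probe set (limma, 2-sided, Benjamini-Hochberg adjustment over 45037 probe sets), and the smallest was 0.257, for Stx1a. Over the whole array 4 of 45037 probe sets passed, or 0.00888%, and 1 of 18193 genes did so at its brightest probe set, or 0.0055%. At an unadjusted p under 0.05, 4 members were higher with creatine (12.9%, against 3.57% of all genes) and 0 were lower (against 7.61%). Those 4 were Stx1a, Cplx2, Bsn and Pclo. The members were chosen with earlier results of these data known, so these shares are a description and not a test. All member differences were small: they ran from -0.16 to 0.28 on the log2 scale, and 20 of the 31 intervals of 95% lay within 0.3 of 0 on either side.

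Means were higher in creatine-fed mice for 19 members and lower for 12, so that 61.3% were higher, against 41.5% of all genes. The median log2 difference of the members was 0.03, and that of all genes was -0.027. With the brighter probe sets alone, 45.8% of 11152 genes were higher, with a median of -0.011, and the members stayed at 19 and 0.03. When each array was instead centred on its median, 24 members were higher, against 57.5% of all genes, with medians of 0.082 and 0.025. In no member did the brightest probe set separate the groups completely, which happened in 0.649% of all genes. Differences are of log2(intensity + 16), which understates the change of dim probe sets, but every member was brighter than the median of each of the 13 arrays. In tissue RNA, fewer cells of a type and less RNA per cell cannot be told apart.

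**Figure D1:**
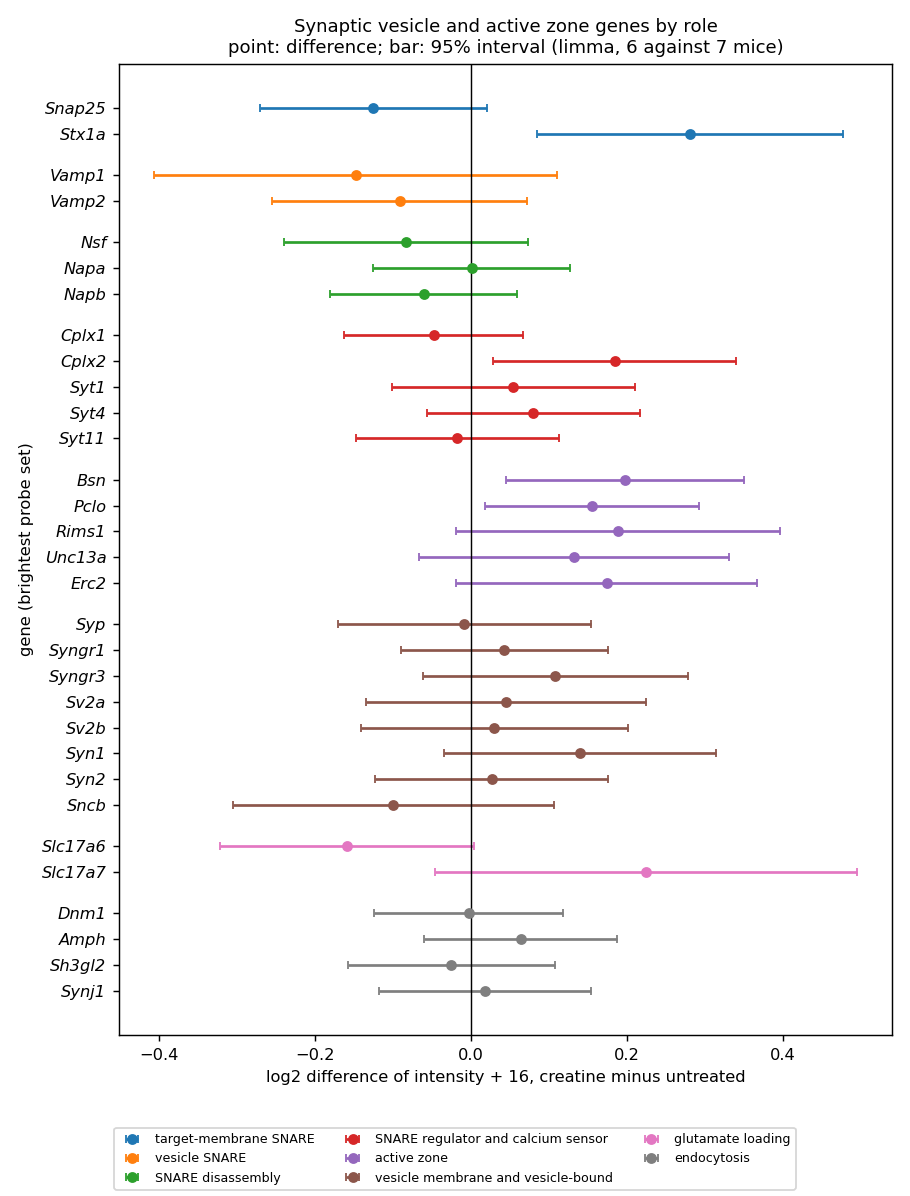
Log2 difference of intensity + 16 between 6 creatine-fed and 7 untreated mice (horizontal axis) for the brightest probe set of each of the 31 genes, coloured by role, with 95% intervals from limma. The intervals of Stx1a, Cplx2, Bsn and Pclo lie above 0, all 5 active zone genes have points between 0.13 and 0.20, and the endocytosis genes lie between -0.03 and 0.06.

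The differences of the target-membrane SNAREs lay on opposite sides of 0, and neither passed. Stx1a encodes syntaxin 1A, the plasma-membrane SNARE to which Munc18 and the calcium channels bind. Its probe set 1437390_x_at read from 1448 to 1907 (median 1557) in creatine-fed mice and from 1151 to 1622 (median 1275) in untreated mice. Each of the 6 creatine-fed values exceeded the untreated mean, and 2 exceeded every untreated mouse. The means were 1607 ± 172 (SD, n = 6) and 1322 ± 162 (SD, n = 7), and the log2 difference was 0.28 ± 0.09 (SE, 95% interval 0.08 to 0.48, adjusted p = 0.257). The other probe set of the gene, 1448366_at, differed by 0.29. The suffix _x_at stands for probes that may hybridise to further transcripts, and 1448366_at does not carry it.

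Snap25, which contributes a pair of helices to the same complex, read from 7710 to 9102 (median 7864.5) with creatine and from 8328 to 10211 (median 8465) without. In 5 of 6 creatine-fed mice the value was below that of every untreated mouse, and the sixth, creatine replicate 6, was above the untreated mean. The log2 difference was -0.13 (95% interval -0.27 to 0.02, adjusted p = 0.499), and the fainter probe set of the gene differed by -0.15. Its size depended on the scaling, at -0.074 with arrays centred on the median (adjusted p = 0.756) and -0.032 after quantile normalization (adjusted p = 0.879). The within-array log2 ratio of Stx1a to Snap25 in the values as deposited was 0.41 higher on average in creatine-fed mice, above the untreated mean in 6 of 6 and above every untreated mouse in 3. Such a ratio compares the 2 differences and does not give relative abundance, since each probe set has its own brightness. The ratio was not tested, and its values in the 2 groups overlapped.

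The vesicle SNAREs had lower means. Vamp2, the main synaptobrevin of forebrain synapses, read from 2605 to 3411 (median 2798) in creatine-fed mice and from 2828 to 3546 (median 3065) in untreated mice. The log2 difference was -0.09 (adjusted p = 0.684), and 3 creatine-fed mice were below all untreated ones, but the second probe set of the gene differed by 0.08. The difference was -0.141 without creatine replicate 4, -0.057 without untreated replicate 3, -0.04 with median centring and -0.006 with all probe sets averaged. Vamp1, the paralogue most used in hindbrain and spinal cord, read from 981 to 1416 (median 1211) and from 981 to 1671 (median 1398), a difference of -0.15 (95% interval -0.41 to 0.11, adjusted p = 0.676). Its interval was among the widest, and the creatine-fed mice lay within the untreated range. It was -0.088 without creatine replicate 6, -0.096 without untreated replicate 7 and, with untreated replicate 3 left out, -0.222.

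The disassembly genes lay close to 0 at their brightest probe sets. Nsf, the ATPase that unwinds the SNARE complex, differed by -0.08 (adjusted p = 0.70), with probe sets from -0.30 to 0.15, and by -0.047 without creatine replicate 1. Napa, which encodes alpha-SNAP, read from 1153 to 1396 (median 1241) with creatine and from 1187 to 1321 (median 1251) without, a difference of 0.00 with a 95% interval of -0.13 to 0.13. Its brain-enriched paralogue Napb depended on which probe set was read. The brightest, 1423172_at, differed by -0.06 (adjusted p = 0.719), with 4 creatine-fed mice below all untreated ones. Of the 5 Napb probe sets with a mean above the lowest array median, 4 were higher with creatine. Among them, 1423173_at differed by 0.12, 1450888_at by 0.10 and 1452444_at by 0.15. At 1427470_s_at the values ran from 1826 to 2056 (median 1960) in creatine-fed mice and from 1594 to 1736 (median 1664) in untreated mice, with no overlap. This was the smallest adjusted p of any member probe set, 0.161, at a log2 difference of 0.23 ± 0.05 (SE), and did not pass. Groups were separate at 1 of the 78 member probe sets (1.28%), against 0.56% of all probe sets, and the suffix _s_at marks probes shared by several transcripts.

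The active zone genes were the role in which every member had a higher mean with creatine. All 5 were higher, with log2 differences between 0.13 and 0.20 and a median of 0.17, although none passed (smallest adjusted p 0.295). Bsn encodes bassoon, one of the very large scaffold proteins that mark the release site. It read from 971 to 1304 (median 1175.5) in creatine-fed mice and from 937 to 1033 (median 1009) in untreated mice, and 5 of 6 creatine-fed mice exceeded every untreated mouse. The means of 1149 ± 119 (SD, n = 6) and 995.9 ± 32.9 (SD, n = 7) differed on the log2 scale by 0.20 ± 0.07 (SE, 95% interval 0.05 to 0.35, adjusted p = 0.295). The dimmer probe sets of Bsn differed by 0.09 and 0.07.

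Pclo, which encodes piccolo, the relative of bassoon, read from 1353 to 1611 (median 1413.5) with creatine and from 1202 to 1408 (median 1302) without. All 6 creatine-fed mice were above the untreated mean and 3 were above every untreated mouse, at a log2 difference of 0.16 ± 0.06 (SE, adjusted p = 0.361). Its other probe sets disagreed, at -0.11 and 0.22. Rims1, the Rab3-binding organiser of vesicle docking and calcium channels, read from 1213 to 1764 (median 1521) against 1138 to 1518 (median 1317), a difference of 0.19 ± 0.10 (SE, adjusted p = 0.475). The ELKS gene Erc2 read from 900 to 1191 (median 1061) against 745 to 1112 (median 951), a difference of 0.17 (adjusted p = 0.477). Unc13a, whose product Munc13 primes vesicles by opening syntaxin, read from 297 to 449 (median 338) against 282 to 356 (median 330), a difference of 0.13 (adjusted p = 0.615), and of 0.068 without creatine replicate 6. In Rims1, Erc2 and Unc13a the groups overlapped, with 3, 1 and 2 creatine-fed mice above every untreated mouse.

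The 5 means were higher in all 27 settings run, the reported one included. In the reported setting 41.5% of all genes were higher. The settings refit the same 13 arrays or some of them, so they are not independent of each other. The brighter probe sets alone and eBayes with trend and robust leave these differences unchanged, so their signs were fixed there. The replicate block gave the same median of the 5, 0.155, as leaving out untreated replicate 7. Without creatine replicate 4, which read highest in several of the 5 genes, the median of the 5 was 0.138. Without the 3 mice lowest in cerebellar markers it was 0.149, and Unc13a was then at 0.019. A further 19 active zone genes, taken from a longer list of vesicle-cycle genes, were higher in 16 with a median of 0.10, and in 13 to 17 across settings. The fewest came when all probe sets of a gene were averaged, with a median of 0.029.

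**Figure D2:**
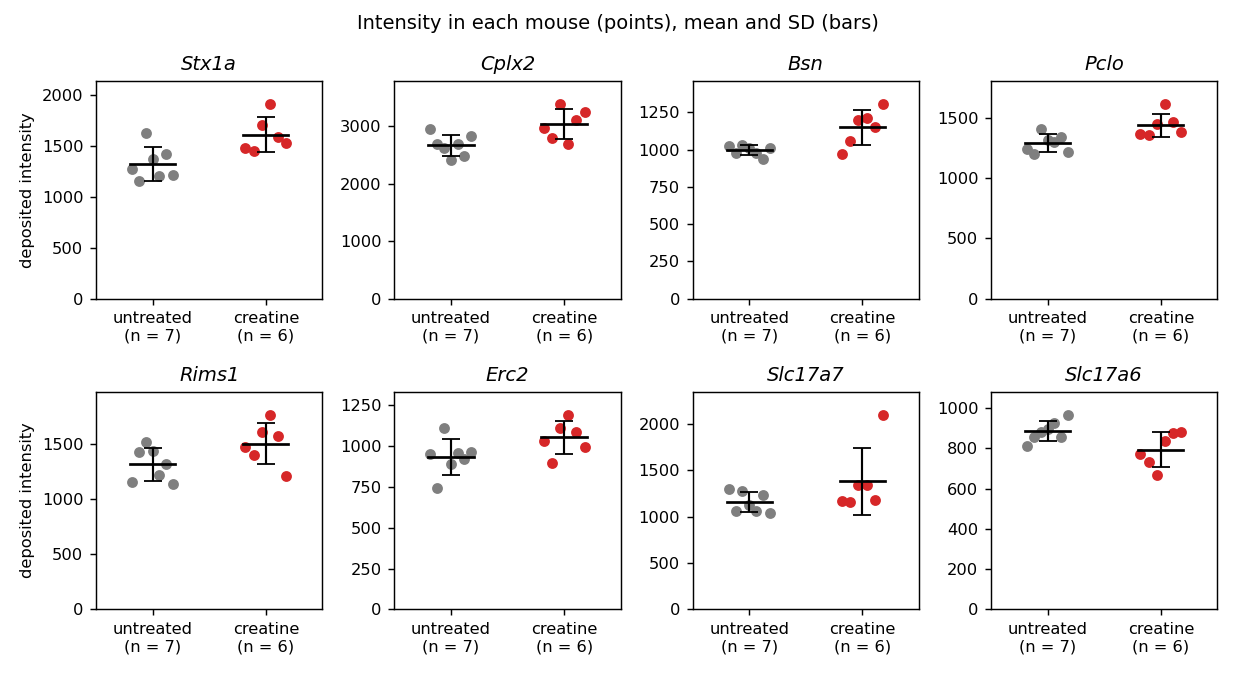
Deposited intensity in each mouse (points; vertical axis from 0) for 8 genes, with the mean (line) and SD (bar) of 7 untreated and 6 creatine-fed mice. Bsn shows 5 of 6 creatine-fed mice above every untreated mouse, Slc17a6 shows all 6 below the untreated mean, and the Slc17a7 mean is drawn up by 1 mouse at 2096.

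Promoter sequence is shown for the 4 genes whose intervals excluded 0, Stx1a, Cplx2, Bsn and Pclo, and for Syn1, to let their upstream regions be compared. RefSeq windows on GRCm38.p6 were at hand for 27 of the 31 genes; Snap25, Vamp2, Syt4 and Syngr3 had none. For the first 4 genes the sequence is the 250 bases that end at the base before the annotated start, on the gene's strand, 5′ to 3′. For Syn1 only the 52 bases farthest from the start are printed, which begin 250 bases before it and do not reach it. Capitals mark GC boxes (GGGCGG, or CCGCCC on the other strand) and, in Syn1, the left arm TTCAGCACC of the RE1 element to which the repressor REST binds.
Stx1a, chr5:135023232-135023481, plus strand: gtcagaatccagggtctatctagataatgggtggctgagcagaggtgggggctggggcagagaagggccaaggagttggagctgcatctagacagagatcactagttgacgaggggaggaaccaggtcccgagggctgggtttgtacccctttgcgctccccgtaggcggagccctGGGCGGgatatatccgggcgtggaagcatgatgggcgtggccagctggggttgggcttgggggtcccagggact
Cplx2, chr13:54302306-54302555, plus strand: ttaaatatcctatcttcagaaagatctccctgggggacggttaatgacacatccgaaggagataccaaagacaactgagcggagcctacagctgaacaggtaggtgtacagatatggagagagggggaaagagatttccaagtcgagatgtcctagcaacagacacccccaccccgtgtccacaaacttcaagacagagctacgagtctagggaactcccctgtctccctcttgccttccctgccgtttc
Bsn, chr9:108190384-108190633, minus strand: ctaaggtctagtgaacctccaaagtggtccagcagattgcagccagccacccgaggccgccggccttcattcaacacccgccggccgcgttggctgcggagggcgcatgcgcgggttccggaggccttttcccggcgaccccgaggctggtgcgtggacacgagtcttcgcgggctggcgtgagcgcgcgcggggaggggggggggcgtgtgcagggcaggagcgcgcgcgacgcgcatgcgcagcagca
Pclo, chr5:14514668-14514917, plus strand: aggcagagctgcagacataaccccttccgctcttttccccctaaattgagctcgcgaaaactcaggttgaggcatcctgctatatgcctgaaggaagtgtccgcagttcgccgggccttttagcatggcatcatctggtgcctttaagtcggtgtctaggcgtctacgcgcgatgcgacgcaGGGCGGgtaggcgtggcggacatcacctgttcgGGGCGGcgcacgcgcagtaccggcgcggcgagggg
Syn1, chrX:20921117-20921168, minus strand: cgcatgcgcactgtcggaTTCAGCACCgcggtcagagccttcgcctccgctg
The Stx1a window held 1 GC box, Pclo held 2, and Bsn and Cplx2 held 0, so the 4 genes did not share this motif. GC boxes were found in 18 of the 27 member genes and in 52.9% of the 34 member windows, against 32.7% of all 32851 windows of this length. The cyclic AMP response element TGACGTCA occurred in Sh3gl2 and Syn1 (5.88% of member windows, 1.55% of all), and the RE1 arm occurred in Syn1 alone among members (2.94%, against 0.301% of all). The median GC content was 60.0% in member windows and 52.4% in all. Both strands were searched, a match is a description of letters only, and none of these windows was measured by the arrays.

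Among the regulators and calcium sensors, the complexins had differences on opposite sides of 0, and neither passed. Cplx2, the complexin most typical of forebrain excitatory neurons, read from 2700 to 3381 (median 3041) in creatine-fed mice and from 2406 to 2957 (median 2683) in untreated mice. All 6 creatine-fed mice were above the untreated mean and 4 were above every untreated mouse. The means were 3036 ± 262 (SD, n = 6) and 2667 ± 187 (SD, n = 7), a log2 difference of 0.18 ± 0.07 (SE, 95% interval 0.03 to 0.34, adjusted p = 0.344), and all 3 probe sets were higher, by 0.14 to 0.24. Cplx1 was lower at all 3 of its probe sets, by -0.05 to -0.04 (adjusted p = 0.778 at the brightest). With arrays centred on the median its brightest probe set was at 0.004. The within-array ratio of Cplx2 to Cplx1 was 0.23 higher on the log2 scale with creatine, and 5 of 6 creatine-fed mice exceeded every untreated mouse. This ratio was not tested, and the groups overlapped, with creatine replicate 4 at -0.42 and untreated mice from -0.51 to -0.32.

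The synaptotagmins showed little difference. Syt1, the fast calcium sensor of release, read from 4629 to 5911 (median 5313) with creatine and from 4649 to 5541 (median 5015) without, a log2 difference of 0.05 (adjusted p = 0.819). Its probe sets ran from -0.10 to 0.32. Syt4, an activity-induced synaptotagmin, differed by 0.08 (adjusted p = 0.667) and was above the untreated mean in all 6 creatine-fed mice, though the difference was 0.047 without untreated replicate 3. Syt11 differed by -0.02 (adjusted p = 0.946), with 5 probe sets from -0.10 to 0.19.

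Of the 8 vesicle proteins 6 had higher means and 2 lower, with a median of 0.04. Syn1, the synapsin that tethers vesicles to actin, read from 2058 to 2677 (median 2376) against 1909 to 2488 (median 2086), the largest difference of the group at 0.14 (adjusted p = 0.535). Syn2 differed by 0.03 at its brightest probe set (adjusted p = 0.923), while at 1449030_at it read from 662 to 932 (median 748.5) against 536 to 683 (median 603), with 5 creatine-fed mice above every untreated mouse, a difference of 0.32 ± 0.09 (SE, adjusted p = 0.201). The Syn2 probe sets therefore did not give one size for the gene.

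Syp, which encodes synaptophysin, a common marker of nerve terminals, read from 2192 to 2933 (median 2712.5) in creatine-fed mice and from 2363 to 2886 (median 2666) in untreated mice. The difference was -0.01 with a 95% interval of -0.17 to 0.15. Syngr1 and Syngr3, the synaptogyrins related to it, differed by 0.04 (adjusted p = 0.837) and 0.11 (adjusted p = 0.632), the latter 0.05 without creatine replicate 6. Sv2a, the binding site of the antiepileptic drug levetiracetam, differed by 0.05 (adjusted p = 0.884), and Sv2b by 0.03 (adjusted p = 0.926).

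Sncb, which encodes beta-synuclein, differed in spread. It read from 739 to 798 (median 766) in untreated mice, and from 603 to 970 (median 680.5) in creatine-fed mice, where 4 were below and 2 above every untreated mouse. The log2 difference was -0.10 (adjusted p = 0.733). It was -0.05 without creatine replicate 1, -0.064 without creatine replicate 5, -0.184 without creatine replicate 6 and -0.236 without the 3 mice lowest in cerebellar markers, and did not pass in any of these.

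The vesicular glutamate transporters had differences on opposite sides of 0, and neither passed. Slc17a6, which encodes the transporter VGLUT2 of thalamic and brainstem neurons, read from 669 to 883 (median 805) with creatine and from 812 to 966 (median 883) without. All 6 creatine-fed mice were below the untreated mean and 3 were below every untreated mouse. The means were 794.7 ± 85.3 (SD, n = 6) and 885.9 ± 50.7 (SD, n = 7), a log2 difference of -0.16 ± 0.08 (SE, 95% interval -0.32 to 0.00, adjusted p = 0.437). The second probe set differed by -0.07. All 6 thalamic markers also had lower means (median -0.19, 0 called; 3 of the 6 dim), with sums of 1084 to 1497 against 1124 to 1612. In creatine replicates 1 to 6 the thalamic sums were 1497, 1407, 1211, 1084, 1161 and 1296. Slc17a6 read 773, 731, 669, 837, 875 and 883 in the same order. In untreated replicates 1 to 7 the thalamic sums were 1412, 1612, 1124, 1414, 1399, 1443 and 1453. There Slc17a6 read 812, 856, 883, 897, 928, 859 and 966. Among brainstem and spinal cord markers 6 of 9 were lower (median -0.37, 7 dim), with sums of 122 to 318 against 129 to 511. No marker of either list was at 0 on all arrays, and their part in the Slc17a6 difference was not tested.

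Slc17a7 encodes VGLUT1, the transporter of cortical, hippocampal and cerebellar granule neurons. It read from 1162 to 2096 (median 1261.5) in creatine-fed mice and from 1038 to 1294 (median 1125) in untreated mice, a log2 difference of 0.22 (95% interval -0.05 to 0.50, adjusted p = 0.519). Creatine replicate 6 stood at 2096 and the other 5 between 1162 and 1342, and without that mouse the difference was 0.099. The within-array ratio of Slc17a7 to Slc17a6 was 0.38 higher on the log2 scale with creatine, above the untreated mean in 6 of 6 mice and above every untreated mouse in 3. Cortical neuron markers were higher at 9 of 9 (median 0.05, 0 called), with sums of 3359 to 4220 against 2890 to 4365, and their part in it was not tested.

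**Figure D3:**
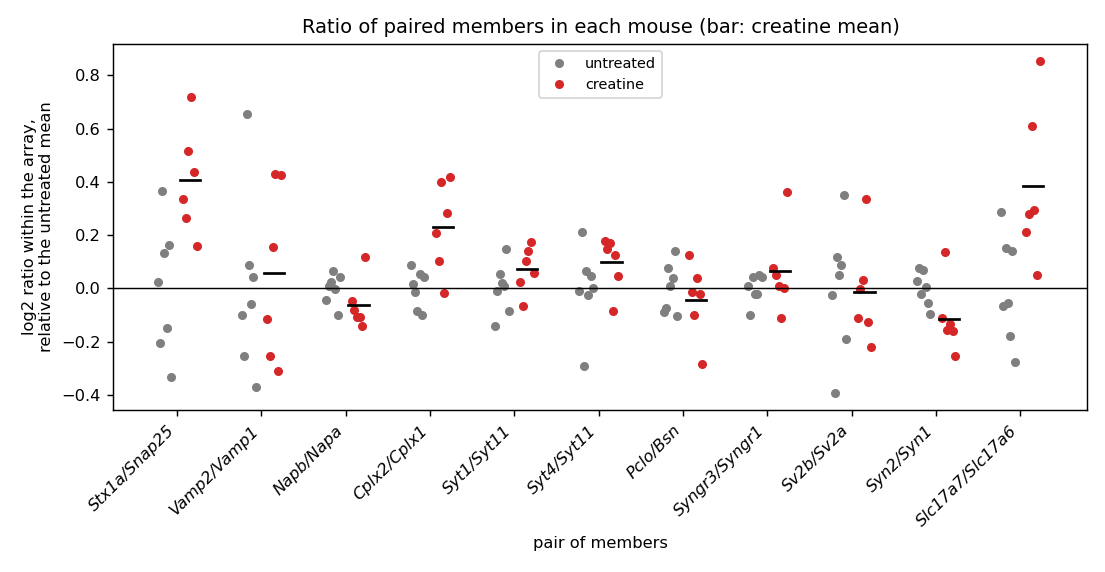
Within-array log2 ratio of paired members in each mouse, set relative to the untreated mean (vertical axis), with 7 untreated mice in grey, 6 creatine-fed mice in red and the creatine mean as a bar. The bars of Stx1a/Snap25, Slc17a7/Slc17a6 and Cplx2/Cplx1 stand at 0.41, 0.38 and 0.23, the groups overlap in every pair, and the other bars lie between -0.11 and 0.10.

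The 4 endocytic genes lay near 0, with differences from -0.03 to 0.06. Dnm1, the dynamin that cuts vesicles from the membrane, read from 4947 to 5843 (median 5347.5) with creatine and from 5204 to 5524 (median 5374) without, a difference of 0.00 with a 95% interval of -0.12 to 0.12. Amph, the amphiphysin that recruits dynamin, differed by 0.06 (adjusted p = 0.711), and by 0.036 without untreated replicate 7. Sh3gl2, the endophilin that bends the neck of the bud, differed by -0.03 (adjusted p = 0.92) and was lower at all 3 probe sets. Synj1, the lipid phosphatase that helps vesicles shed their clathrin coat, differed by 0.02 (adjusted p = 0.946), and by 0.20 at 1436334_at (adjusted p = 0.284). All endocytic intervals lay between -0.16 and 0.19.

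Agreement between probe sets limits what can be said of single members. Of the 24 members with several probe sets, 14 had one sign throughout, 8 of them higher and 6 lower, and in 10 the probe sets disagreed. Over all 78 probe sets 49 were higher and 29 lower. Those with an unadjusted p under 0.05 were 12 on the higher side (15.4%, against 4.17% of all probe sets) and 1 on the lower side (1.28%, against 7.7%), and the smallest adjusted p was 0.161. As the members were chosen with earlier results known, these shares too are a description. Of the 78, 7 had a mean under 37, the lowest array median, and carry little information.

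**Figure D4:**
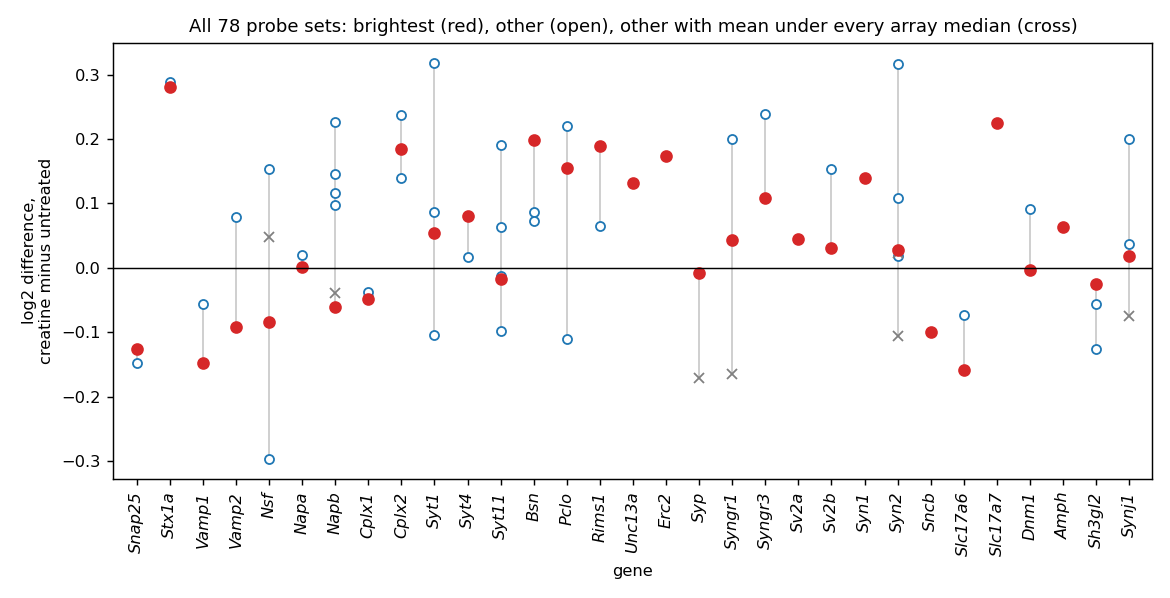
Log2 difference between creatine-fed and untreated mice (vertical axis) for all 78 probe sets of the 31 genes (horizontal axis), with the brightest in red, others open, and dim ones as crosses. Both probe sets of Stx1a and all 3 of Cplx2 lie above 0, all 3 of Cplx1 and of Sh3gl2 lie below, and those of Nsf spread from -0.30 to 0.15.

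The members did not vary evenly over mice. Creatine replicate 4 was the highest of 13 mice in 11 members and creatine replicate 6 in 9, together 20 of 31. Creatine replicates 4, 6 and 3 exceeded the untreated mean in 25, 24 and 21 members, and creatine replicate 1 in 12. Among untreated mice, replicate 2 was the lowest of 13 in 7 members, and replicate 3 was the highest of its group in 13. The array of creatine replicate 4 had the lowest median of the 13, 37, and that of untreated replicate 2 the highest, 45; the group means of these medians were 40.8 and 42.7 (exact permutation p = 0.134, 2-sided). With each array centred on its median, 24 members were higher, as given above. Without creatine replicate 4 the count of higher members was 15 of 31 and their median was -0.004. Of all genes 40.6% were higher in that fit, with a median of -0.03. The log2 SD among untreated mice was between 0.031 and 0.235 per member, with a median of 0.092, against 0.176 for all genes.

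Cerebellar markers differed between these mice. Their sum was 2768 in untreated replicate 3, 6495 in creatine replicate 4 and 9014 in creatine replicate 6, and between 10655 and 19724 in the others, with the highest in untreated replicate 2. The granule-cell marker Gabra6 read 22, 556 and 873 in those 3 mice, and the Purkinje-cell marker Pcp2 read 27, 736 and 940. With the mean log2 of the 10 markers as a covariate, 0 members passed, 19 were higher, the median was 0.041 and the smallest adjusted p was 0.141. Of all genes 41.7% were higher in this fit, with a median of -0.027. Stx1a then differed by 0.30, Slc17a7 by 0.24 and Slc17a6 by -0.15. Without the 3 mice, 16 members were higher with a median of 0.016, 0 passed (smallest adjusted p 0.267), and Slc17a7 differed by 0.095. All genes then stood at 41.1% higher, with a median of -0.031.

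The same fit gave a slope on the cerebellar markers, and 298 of 45037 probe sets passed for it (0.662%). Among the members 0 passed (smallest adjusted p 0.183), with 25 slopes negative and 6 positive, where 54.1% of all genes were negative. The members' median slope was -0.047 log2 per log2 unit, against -0.007 for all genes. Untreated replicate 3 weighed on it: without that mouse the median was -0.131, against -0.02 for all genes, and the slope of Stx1a was -0.222 ± 0.094 (SE, adjusted p = 0.363). Vamp1 had a slope of 0.18 ± 0.05 (SE, adjusted p = 0.183), and Stx1a one of -0.14 ± 0.04 (SE, adjusted p = 0.205). Without untreated replicate 3, 25 member slopes were again negative, against 54.9% of all genes. After quantile normalization 22 were negative, against 57.3% of all genes, with medians of -0.028 and -0.012.

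**Figure D5:**
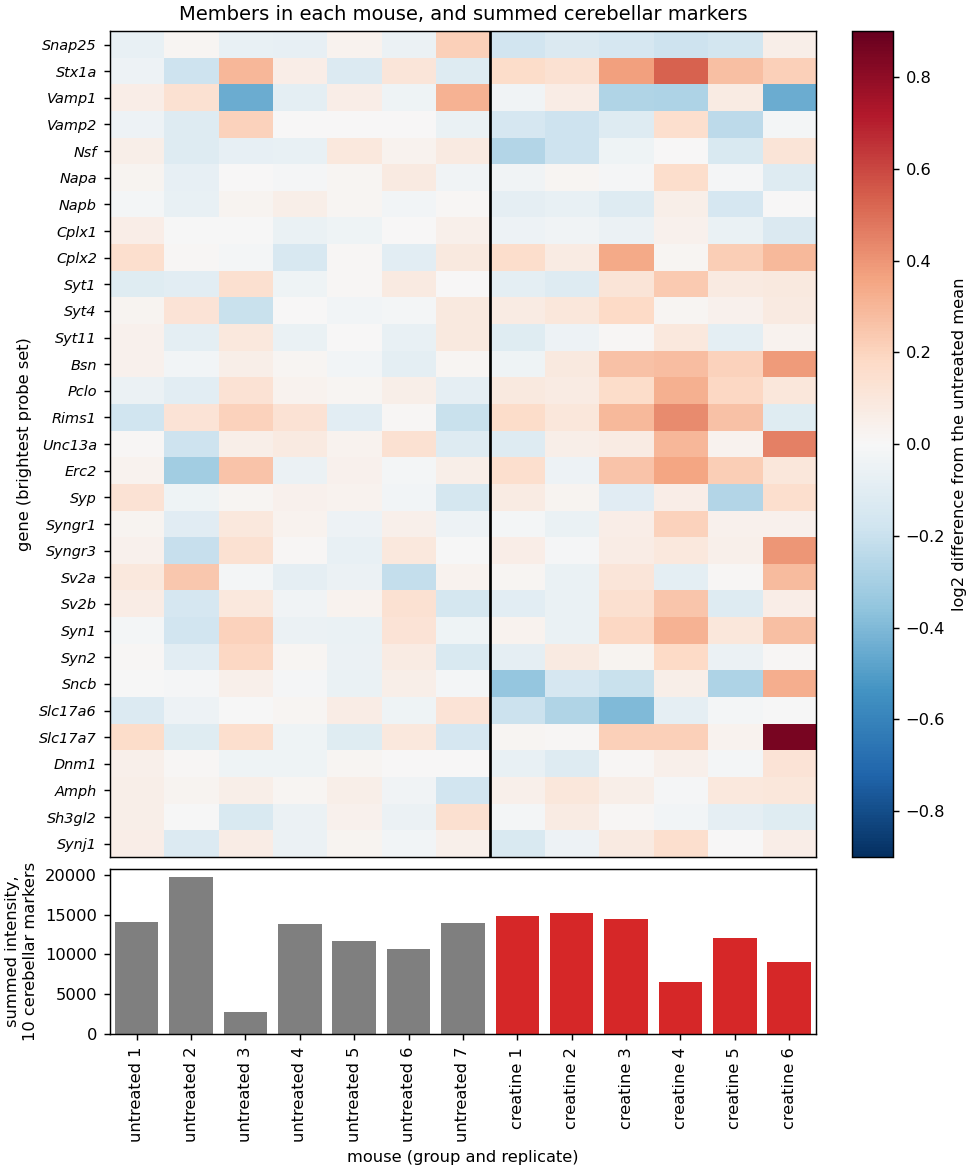
Log2 difference of each member from the untreated mean in each mouse (colour, upper panel) above the summed intensity of 10 cerebellar markers (bars, lower panel), for 7 untreated (grey) and 6 creatine-fed (red) mice. Creatine replicates 4 and 6 hold the highest value in 20 of 31 members and have marker sums of 6495 and 9014, and untreated replicate 3 has a sum of 2768.

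Marker lists of brain cell types and regions were read on the same arrays, and none passed by diet. Not every sample carried every list: in untreated replicate 3, Gabra6 at 22 and Pcp2 at 27 were under the array median of 41. General neuron markers were lower at 8 of 12 (median -0.09), with sums of 25136 to 26786 against 25761 to 27687. Astrocyte markers were lower at 8 of 10 (median -0.11), with sums of 12813 to 14297 against 13663 to 16446. Oligodendrocyte markers were lower at 8 of 9 (median -0.12), with sums of 17321 to 19474 against 18913 to 23571. At an unadjusted p under 0.05, 3 astrocyte markers (30.0%) and 4 oligodendrocyte markers (44.4%) were lower, against 7.61% of all genes, and 0 were higher. The smallest adjusted p of these 2 lists was 0.244 and 0.186 (limma). Markers of GABAergic neurons were lower at 4 of 6 (median -0.08), with sums of 7948 to 9709 against 8709 to 9453, and microglial markers were higher at 8 of 10 (median 0.08). Of the 10 cerebellar markers 8 were higher (median 0.07). Their sums ran from 6495 to 15186 (median 13270) against 2768 to 19724 (median 13789), the lowest in untreated replicate 3. Endothelial markers were lower at 5 of 9, choroid plexus markers at 4 of 6 and olfactory bulb markers at 5 of 6 (median -0.29, with sums of 225 to 440 against 246 to 917, the highest in untreated replicate 3). No marker of these lists was at 0 on all arrays, and their part in the member differences was not tested. The log2 3′/5′ ratio of the control transcripts, a sign of RNA quality, ran from 0.09 to 0.22 with creatine and from 0.13 to 0.24 without (exact permutation p = 0.382, 2-sided, over 1716 splits).

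No further gene of the vesicle cycle passed either. Of 102 listed, 95 were measured, 53 with higher and 42 with lower means, with a median of 0.03 and a smallest adjusted p of 0.231. At an unadjusted p under 0.05, 3 were higher (3.16%, against 3.57% of all genes) and 4 lower (4.21%, against 7.61%), both under the share over the array. Besides the 19 active zone genes, 14 of 17 regulators and calcium sensors were higher (median 0.08), while 10 of 25 endocytic genes, 5 of 15 genes of transmitter and proton loading and 5 of 13 vesicle proteins were higher, each with a median of -0.02.

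By the size of p, 5 genes per direction are named. Doc2b, a calcium sensor of spontaneous release, averaged 293 ± 25.0 (SD, n = 6) with creatine and 238 ± 30.7 (SD, n = 7) without, which is 0.29 on the log2 scale (adjusted p = 0.237), but its other probe set was lower. The Rab3 regulators Rab3gap2 and Rab3gap1 differed by 0.15 (adjusted p = 0.305) and 0.14 (adjusted p = 0.387), the RIM-binding protein Rimbp2 by 0.26 (adjusted p = 0.442), and the vesicle GTPase Rab3b by 0.27 (adjusted p = 0.471). On the lower side, the liprin Ppfia1 averaged 94.8 ± 15.1 (SD, n = 6) with creatine and 123 ± 14.3 (SD, n = 7) without, or -0.33 (adjusted p = 0.231), but its other probe set was higher. The endocytic scaffold Itsn1 differed by -0.36 (adjusted p = 0.255), with 4 of its 9 probe sets higher and 5 lower. Sh3gl1, an endophilin, differed by -0.18 (adjusted p = 0.377), Snap23, a ubiquitous relative of Snap25, by -0.19 (adjusted p = 0.386; 1 of its 3 probe sets higher), and Ston2, a stonin that sorts vesicle proteins, by -0.25 (adjusted p = 0.429).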

How the data were processed

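Intensities deposited by the authors, 1 per probe set and array, are whole numbers on a linear scale. Their mean after trimming 2% of probe sets at each end is 150.05 on every array, and array medians run from 37 to 45. The submitters' processing notes name only RMA, which returns log2 values, so the scaling behind these values is not given in the sources used here. Because zeros occur, 16 was added before log2 was taken, and no second scaling was applied. Of 45101 probe sets 64 controls were left out and 45037 tested. Gene symbols came from the platform annotation, updated through the Entrez ID for 34754 probe sets; 34945 probe sets carried 1 symbol.

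Creatine-fed and untreated mice were compared with limma 3.58.1 (lmFit, eBayes) in R 4.3.3, 2-sided, without covariates, with Benjamini-Hochberg adjustment over all probe sets and a threshold of 0.05. Intervals use limma's moderated errors, and 3′/5′ ratios were compared by exact permutation with scipy 1.17.1. The procedure was also run on simulated data, with probe sets independent of each other and planted differences larger than any member difference. That run therefore does not tell whether differences of the members' size would be found. Precision is set by the number of arrays, 6 against 7.

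The members and gene lists were chosen with earlier results of these data known. All members are named, and of the further vesicle-cycle genes the 5 per direction with the smallest unadjusted p. Pairs for the ratios, the mice singled out, the promoters shown, the motifs and the probe sets named beside the brightest ones were picked after values were seen. The cerebellar covariate and the fit without 3 mice were added after seeing the data. Other alternatives were quantile normalization, median centring, offsets of 1 and 50, the brighter probe sets alone, the replicate number as a block, eBayes with trend and robust, array weights, a 3′/5′ covariate, other choices of probe set, and leaving out each mouse. Promoter windows came from RefSeq (GRCm38.p6). Figures were drawn with matplotlib 3.10.9.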

Additional observations from a re-analysis of the deposited data

Results flagged for a closer look

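Of 62 groups of values (31 genes, each in 2 diets), 6 held a mouse that stood apart from the rest of its group at the brightest probe set, where chance gives about 1 in 20. Creatine replicate 6 was the mouse in 3 of them. It read 9102 for Snap25, where the other 5 creatine-fed mice read 7710 to 8040, 856 for Syngr3 (others 640 to 691), and 2096 for Slc17a7 (others 1162 to 1342). Without that mouse the log2 differences were -0.161, 0.05 and 0.099. Untreated replicate 7 read 10211 for Snap25 (others 8328 to 8963) and 1014 for Amph (others 1115 to 1188). Untreated replicate 3 read 3546 for Vamp2 (others 2828 to 3075).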

How the results depend on the processing

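Under the 26 alternatives to the reported setting, 0 of the 31 genes passed in each, and the smallest adjusted p for a member ran from 0.0903 (trend and robust) to 0.427 (without creatine replicate 3). Higher members numbered between 15 (without creatine replicate 4) and 24 (arrays centred on the median), and the median log2 difference lay between -0.004 and 0.082 in the same settings. Of all genes 40.6% and 57.5% were higher in these settings, with medians of -0.03 and 0.025. Of 806 member values, 772 kept their direction, 34 changed sign and 0 crossed the threshold; 20 genes never changed sign. The brighter probe sets alone and the trend and robust fit cannot change a sign, and their values are among the 772. Sign changes were at small values, and their cause was not tested. With quantile normalization Napa was at -0.018, Syp at 0.006 and Dnm1 at 0.061. With median centring Cplx1 was at 0.004, Syt11 at 0.034, Syp at 0.043, Dnm1 at 0.049 and Sh3gl2 at 0.027. Napa was at -0.002 with array weights and Syp at 0.005 with the 3′/5′ covariate. With the mean of all probe sets Napb was at 0.081, Syt11 at 0.025 and Dnm1 at 0.044. Without the 3 mice lowest in cerebellar markers, chosen after seeing the data, Napa was at -0.009, Sv2b at -0.016 and Synj1 at -0.012. Leaving out 1 mouse at a time gave -0.03 to 0.024 for Napa, -0.041 to 0.043 for Syp, -0.028 to 0.02 for Dnm1, -0.041 to 0.0 for Syt11, -0.013 to 0.059 for Sv2b, -0.004 to 0.058 for Syn2, -0.008 to 0.049 for Synj1 and -0.002 to 0.086 for Sv2a.

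Same-numbered mice of the 2 diets deviated together weakly or not at all (correlations of -0.055 to 0.146). Differently numbered mice were not compared, so this cannot tell whether the numbers pair the samples. With the replicate number as a block, 0 members passed, 18 were higher, the median was 0.026 and Napa was at -0.005. Of all genes 41.9% were higher in that fit, with a median of -0.027. Replicate number 7 occurs only among untreated mice, so that mouse does not enter the diet difference when blocks are used. Leaving out untreated replicate 7 likewise gave 18 higher members and a median of 0.026. Intervals as wide as -0.41 to 0.11 for Vamp1 show that differences of that size could not be resolved with these 13 arrays.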
